A study of Mus musculus with 9 samples.

Results

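Coagulation and fibrinolysis at the vessel wall are represented here by 9 genes: F3, Tfpi, Thbd, Procr, Pros1, Plat, Plau, Plaur and Vwf. They were taken by symbol from a table of 52381 genes, each symbol occurred in 1 row, and all 9 were among the 11817 genes that passed a filter on low values, an FPKM of 1 or more in 4 or more libraries. RNA was sequenced for the study in lung tissue of 9 mice, all of which had acute lung injury (ALI) after lipopolysaccharide (LPS), a component of bacterial outer membranes. In 5 of them, called TMAO lungs, the injured mice were also treated with trimethylamine N-oxide (TMAO), a metabolite that derives from gut bacterial products. The other 4, called LPS-ALI lungs, had the injury alone. All 9 mice thus had LPS injury, and lungs without LPS are not analysed here. The sources used here do not give the strain, age or sex of the mice, nor the doses, routes and times of LPS and TMAO.

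Blood clotting starts when tissue factor (F3) meets its plasma ligand, factor VII, on a cell surface, and tissue factor pathway inhibitor (Tfpi) shuts that complex down. On intact endothelium, thrombomodulin (Thbd) binds thrombin and, with the endothelial protein C receptor (Procr), turns protein C into an anticoagulant enzyme that uses protein S (Pros1) as its cofactor. Fibrin is dissolved by plasmin, which tissue-type and urokinase-type plasminogen activators (Plat and Plau) make from plasminogen, Plau while bound to its receptor (Plaur). Von Willebrand factor (Vwf) is stored in endothelial cells and platelets and tethers platelets to an injured wall. Inflamed endothelium is known to gain tissue factor and to lose thrombomodulin.

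The labels name lung as the tissue, while their extraction protocol speaks of platelets. The summed FPKM (fragments per kilobase of gene, scaled to the mapped fragments of the library) of 7 alveolar type 2 markers was 4795 to 10550 in TMAO and 1103 to 14170 in LPS-ALI lungs. That of 8 platelet markers was 20.04 to 28.1 in TMAO and 32.8 to 80.5 in LPS-ALI lungs, with none of the 8 at 0 in every library, and the samples are described as lung. The platelet score, the mean log2 value of its tested markers less the median tested gene of the library, was -1.27 to 0.08 in TMAO and -0.58 to 0.11 in LPS-ALI lungs. The 5 hepatocyte markers summed to 0.28 to 1.83 FPKM in TMAO and 0.04 to 1.01 in LPS-ALI lungs. In a bulk sample, fewer cells of a type and less RNA per cell cannot be told apart. A pair of libraries stood apart. TMAO replicate 5 was the shallowest, at 0.384 times the depth of the deepest library, and had the fewest genes at an FPKM of 1 or more, 8846, where the highest number was 12239. The mitochondrial share of the summed FPKM was highest in TMAO replicate 5, at 52.2%, and lowest in LPS-ALI replicate 4, at 33.4%. LPS-ALI replicate 4 had the lowest endothelial marker score, 1.78 log2 units above the median gene of its library, against 2.58 to 3.50 in TMAO lungs and up to 3.23 in the other LPS-ALI lungs. It also had the highest erythroid score, 4.58, against at most 2.53 in TMAO lungs, and the highest scores of T and NK cells (1.63), alveolar macrophages (1.85), ciliated cells (1.91) and lymphatic endothelium (1.01). The TMAO lungs had at most -0.25, 1.15, 0.90 and 0.94 for these lists, and the other LPS-ALI lungs at most 0.60, 1.51, 1.04 and 0.68. The tested lymphatic markers disagreed in LPS-ALI replicate 4. Lyve1 had 656.17 FPKM there, against at most 134.28 FPKM in any other library, and Flt4 (2.99 FPKM) was also above the other LPS-ALI lungs. Ccl21a (12.49 FPKM) and Mmrn1 (0.8 FPKM) were below them. The alveolar type 2 score of LPS-ALI replicate 4, 2.46, was the lowest, against 4.58 to 5.33 in TMAO and 4.78 to 5.72 in the other LPS-ALI lungs. The T and NK score rests on 3 of its 6 markers, Nkg7, Gzma and Gzmb. The T cell genes Cd3e and Cd3d, and Klrb1c, were below the filter. The score was not high in LPS-ALI replicate 4 alone, since it was -0.999 to -0.25 in TMAO and -0.19 to 1.63 in LPS-ALI lungs, without overlap. Its difference, TMAO minus LPS-ALI, was -1.26 with all libraries, -0.92 when LPS-ALI replicate 4 was omitted and -0.78 within code B. Capillary markers scored 0.99 to 1.69 in TMAO and 0.67 to 1.42 in LPS-ALI lungs, and alveolar type 1 markers 3.07 to 3.60 in TMAO and 2.89 to 3.87 in LPS-ALI lungs. Fibroblast markers scored 0.80 to 2.09 in TMAO and 0.0031 to 1.73 in LPS-ALI lungs, and smooth muscle markers 0.43 to 0.58 in TMAO and -0.09 to 0.86 in LPS-ALI lungs. An X opens the code of 2 libraries, LPS-ALI replicates 3 and 4, and a B that of all others. No TMAO library is X-coded, so values without the X-coded libraries are those within code B.

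The median tested gene was 0.17 log2 units lower in TMAO lungs, so log2 differences are given relative to it, on the log2(FPKM + 1) scale, unless called unshifted, while limma p-values test the unshifted difference. No gene passed an adjusted p of 0.05 by limma (0 of 11817, or 0%), while 396 genes had an unadjusted limma p under 0.05, 346 of them lower in TMAO lungs (2.93% of all tested) and 50 higher (0.423%). Under median-of-ratios scaling the split was 433 lower and 364 higher, and under quantile normalization 450 lower and 441 higher. Without TMAO replicate 5 it was 345 lower and 504 higher, and the median tested gene was 0.05 log2 units higher in TMAO lungs. The median tested gene of that library was 1.74 on the log2 scale, against at least 2.74 in the others. With library weights, 51 genes passed the adjusted threshold, none of them among the 9. The limma adjusted p was 0.998 for each of the 9 genes, so the differences below are measured values and none is a call.

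F3 and Procr had lower values in every TMAO lung than in any LPS-ALI lung, and Plaur was lower in 4 of 5. Thbd was higher on average in TMAO lungs, with overlap. Tfpi, Pros1, Plat, Plau and Vwf differed by less than the spread between replicates. F3 and Procr were 2 of 9 genes at an unadjusted limma p under 0.05 in the lower direction, where the share over all genes was 2.93%, and 2 of 9 with no overlap in that direction, where it was 1.36%. With each value taken relative to the median gene of its library, F3 and Procr were again the 2 of 9 without overlap on the lower side (1.70% of all genes) and 0 of 9 had none on the higher side (1.72%). None of the 9 had that p or that separation in the higher direction. Of the 9, 3 lay below and 6 above the median gene. Their median relative difference was 0.13, against 0.00 over all tested genes, and their median absolute difference was 0.46, against 0.20.

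**Figure D1:**
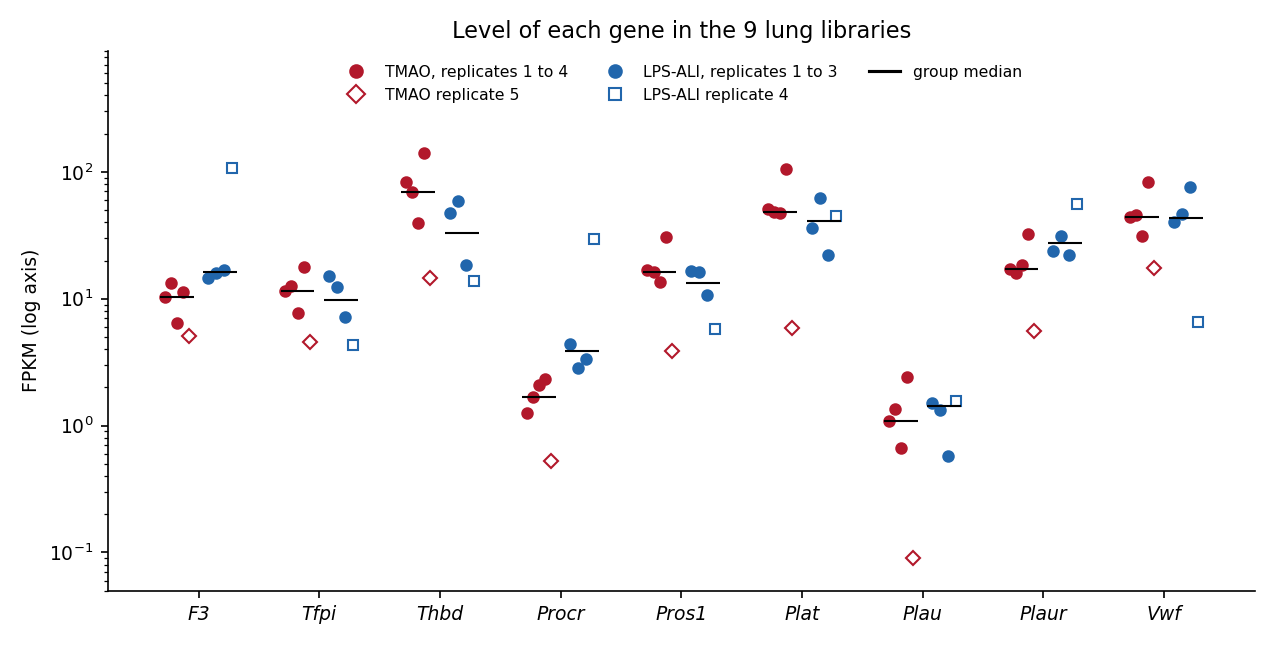
FPKM of the 9 genes (log axis) in each library, with TMAO lungs on the left and LPS-ALI lungs on the right of each gene and a line at each group's median. Open symbols mark TMAO replicate 5 and LPS-ALI replicate 4, which holds the highest F3 value, 107.91 FPKM, and the lowest Vwf value, 6.61 FPKM.

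FPKM values are per length, so levels can be set side by side between genes. In TMAO lungs the order of mean FPKM was Thbd (69.1), Plat (51.5), Vwf (44.2), Plaur (17.9), Pros1 (16.2), Tfpi (10.8), F3 (9.28), Procr (1.57) and Plau (1.12). The step between Vwf and Plaur and that between F3 and Procr held in all 5 TMAO libraries. The other neighbours changed places in at least 1 library and do not differ beyond their spread. In LPS-ALI lungs the order was Vwf (42.3), Plat (41.6), F3 (38.7), Thbd (34.5), Plaur (33.1), Pros1 (12.2), Procr (9.97), Tfpi (9.74) and Plau (1.24). There the steps between Plaur and Pros1 and between Tfpi and Plau held in all 4 libraries, and the remaining neighbours changed places. The ranks of F3 and Procr in LPS-ALI lungs come from replicate 4, since without it their means were 15.7 and 3.53 FPKM.

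Tissue factor is the cell-surface initiator of clotting. In GRCm38, F3 occupies chromosome 3, plus strand, between 121723537 and 121735048. It had 10.3, 13.35, 6.39, 11.33 and 5.05 FPKM in TMAO replicates 1 to 5, against 14.43, 15.87, 16.7 and 107.91 FPKM in LPS-ALI replicates 1 to 4. Each TMAO lung lay below each LPS-ALI lung, but the margin between 13.35 and 14.43 was narrow, and LPS-ALI replicate 4 lay far above all others. The means were 9.28 ± 3.47 FPKM in TMAO (SD, n = 5) and 38.7 ± 46.1 FPKM in LPS-ALI lungs (SD, n = 4), a ratio of 0.24. The relative log2 difference was -1.28 and the unshifted one -1.44 ± 0.53 (SE), with an unadjusted limma p of 0.0162. The exact two-sided permutation p was 0.0159, the smallest that this test allows for groups of these sizes. Without LPS-ALI replicate 4 the relative difference was -0.64 (limma unadjusted p = 0.0720), and without both X-coded libraries it was -0.50 (limma unadjusted p = 0.158). The T and NK score separated the groups in the same direction as F3 and Procr did. The part that it and the marker scores of replicate 4 have in these differences was not tested.

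The RefSeq promoter window of F3, from 250 bases before to 50 bases after the start site, is shown because it holds matches to the AP-1 motif (TGANTCA, which reads the same on both strands), printed in capitals. Its place on GRCm38.p6 is chr3:121723287-121723586, on the plus strand.
F3: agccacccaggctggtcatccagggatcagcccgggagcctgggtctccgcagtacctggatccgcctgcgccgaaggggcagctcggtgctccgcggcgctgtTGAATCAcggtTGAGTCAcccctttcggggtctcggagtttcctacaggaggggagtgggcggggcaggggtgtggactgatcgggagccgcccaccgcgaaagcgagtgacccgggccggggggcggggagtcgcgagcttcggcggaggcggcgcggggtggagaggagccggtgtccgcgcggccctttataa
Counted from the start site, with -1 the base just before it, the matches TGAATCA and TGAGTCA begin at positions -146 and -135.

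Tissue factor pathway inhibitor is made largely by endothelial cells. Tfpi lies on chromosome 2 from 84432855 to 84476775, on the minus strand. It had 11.6, 12.68, 7.7, 17.65 and 4.52 FPKM in TMAO replicates 1 to 5, against 15.2, 12.3, 7.19 and 4.28 FPKM in LPS-ALI replicates 1 to 4. The groups overlapped over nearly their whole range, and the lowest value of each came from the library that stood apart, TMAO replicate 5 and LPS-ALI replicate 4. Tfpi differed by 0.32 relative to the median gene and by 0.15 ± 0.44 (SE) unshifted, with an unadjusted limma p of 0.736 and an exact permutation p of 0.730. Leaving out LPS-ALI replicate 4 gave a relative difference of -0.02, and leaving out both X-coded libraries gave -0.21.

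The endothelial protein C receptor presents protein C to the thrombin-thrombomodulin complex. Procr lies on chromosome 2 from 155751117 to 155755471, on the plus strand. It had 1.25, 1.69, 2.08, 2.32 and 0.53 FPKM in TMAO replicates 1 to 5, against 4.4, 2.82, 3.37 and 29.3 FPKM in LPS-ALI replicates 1 to 4. As for F3, the groups did not overlap and LPS-ALI replicate 4 was far above the rest. The means were 1.57 ± 0.71 FPKM in TMAO (SD, n = 5) and 9.97 ± 12.9 FPKM in LPS-ALI lungs (SD, n = 4), a ratio of 0.16. The relative log2 difference was -1.37 and the unshifted one -1.54 ± 0.53 (SE), with an unadjusted limma p of 0.0104 and an exact permutation p of 0.0159. Without LPS-ALI replicate 4 the relative difference was -0.72 and kept an unadjusted limma p of 0.0287, and without both X-coded libraries it was -0.65 (limma unadjusted p = 0.0574). Procr values are low, and the pseudocount of 1 shrinks their differences, since with 0.1 the relative difference was -1.76.

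The promoter window of Procr is shown beside that of F3 for the same motif, again in capitals. It lies at chr2:155750967-155751266 on the plus strand of GRCm38.p6.
Procr: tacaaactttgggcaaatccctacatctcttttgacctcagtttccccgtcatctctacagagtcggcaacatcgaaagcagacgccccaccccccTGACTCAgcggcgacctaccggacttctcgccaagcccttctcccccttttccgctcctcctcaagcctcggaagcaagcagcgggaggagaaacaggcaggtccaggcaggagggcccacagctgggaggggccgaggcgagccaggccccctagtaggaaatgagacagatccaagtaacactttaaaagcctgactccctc
The AP-1 match, TGACTCA, begins at position -154.

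Thrombomodulin is the thrombin receptor of endothelium. Thbd lies on chromosome 2 from 148404466 to 148408188, on the minus strand. It had 82.86, 68.74, 39.61, 139.64 and 14.61 FPKM in TMAO replicates 1 to 5, against 47.13, 58.45, 18.55 and 13.7 FPKM in LPS-ALI replicates 1 to 4. TMAO replicates 1, 2 and 4 lay above every LPS-ALI lung, TMAO replicate 5 was at the low end, and both X-coded LPS-ALI lungs were low. The means were 69.1 ± 47.4 FPKM in TMAO and 34.5 ± 21.8 FPKM in LPS-ALI lungs (SD, n = 5 and 4). The relative log2 difference was 1.05 and the unshifted one 0.88 ± 0.58 (SE), with an unadjusted limma p of 0.151 and an exact permutation p of 0.286. That unadjusted limma p was 0.0319 under median-of-ratios scaling, 0.0358 under quantile normalization and 0.0164 without TMAO replicate 5. Thbd differed by 0.67 without LPS-ALI replicate 4 and 0.27 without both X-coded libraries (limma unadjusted p = 0.940).

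Protein S is the cofactor of activated protein C, and also a ligand of the Tyro3, Axl and Mertk receptors. Pros1 lies on chromosome 16 from 62854307 to 62929346, on the plus strand. It had 16.75, 16.19, 13.62, 30.54 and 3.9 FPKM in TMAO replicates 1 to 5, against 16.45, 16.1, 10.63 and 5.81 FPKM in LPS-ALI replicates 1 to 4. The groups overlapped, with TMAO replicate 4 highest and TMAO replicate 5 lowest of all. Pros1 differed by 0.42 relative to the median gene and by 0.25 ± 0.49 (SE) unshifted, with an unadjusted limma p of 0.621. It was -0.01 without both X-coded libraries. Protein C itself (Proc), a plasma zymogen made by the liver, was at 0 in TMAO replicates 1 and 5 and LPS-ALI replicate 4 and at most 0.71 FPKM elsewhere, so it was below the filter.

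Among the genes of fibrinolysis, tissue-type plasminogen activator was the more abundant activator in every library. Plat lies on chromosome 8 from 22757727 to 22782844, on the plus strand. It had 50.77, 48.18, 47.78, 104.74 and 5.85 FPKM in TMAO replicates 1 to 5, against 36.37, 62.58, 22.16 and 45.24 FPKM in LPS-ALI replicates 1 to 4. TMAO replicates 1 to 3 were close to each other and inside the LPS-ALI range, and TMAO replicates 4 and 5 were the highest and the lowest of all libraries. Plat differed by 0.13 relative to the median gene and by -0.04 ± 0.61 (SE) unshifted, with an unadjusted limma p of 0.955. The relative difference was 0.54 without TMAO replicate 5 (limma unadjusted p = 0.116) and -0.10 without both X-coded libraries.

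Urokinase was the lowest of the 9 genes by mean level in both groups. Plau lies on chromosome 14 from 20836660 to 20843385, on the plus strand. It had 1.08, 1.36, 0.67, 2.41 and 0.09 FPKM in TMAO replicates 1 to 5, against 1.51, 1.32, 0.58 and 1.56 FPKM in LPS-ALI replicates 1 to 4. The groups overlapped, and the value near 0 came from the shallowest library. Plau differed by 0.02 relative to the median gene and by -0.15 ± 0.33 (SE) unshifted, with an unadjusted limma p of 0.644, and its sign changed with lower pseudocounts and under median-of-ratios and quantile scaling.

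The urokinase receptor, which neutrophils, macrophages and activated endothelium carry, was far more abundant than its ligand. Plaur lies on chromosome 7 from 24462484 to 24475968, on the plus strand. It had 17.29, 15.96, 18.45, 32.37 and 5.52 FPKM in TMAO replicates 1 to 5, against 23.64, 31.19, 21.91 and 55.61 FPKM in LPS-ALI replicates 1 to 4. TMAO replicates 1, 2, 3 and 5 lay below every LPS-ALI lung, and TMAO replicate 4 lay among them. The means were 17.9 ± 9.58 FPKM in TMAO and 33.1 ± 15.5 FPKM in LPS-ALI lungs (SD, n = 5 and 4). The relative log2 difference was -0.76 and the unshifted one -0.93 ± 0.45 (SE), with an unadjusted limma p of 0.0565. The exact permutation p was 0.111 unshifted and 0.0317 relative to the median gene. The unadjusted limma p was 0.0182 under median-of-ratios scaling and 0.0152 under quantile normalization, and 0.183 without LPS-ALI replicate 4, where the relative difference was -0.52. Of the leukocytes that carry the receptor, neutrophils had marker scores of 3.44 to 4.96 in TMAO and 3.31 to 4.55 in LPS-ALI lungs, and LPS-ALI replicate 4, highest in Plaur, had the lowest of these scores. Monocyte and macrophage markers scored 1.89 to 2.56 in TMAO and 1.61 to 2.59 in LPS-ALI lungs, again with LPS-ALI replicate 4 lowest. Alveolar macrophage markers scored 0.63 to 1.15 in TMAO and 0.75 to 1.85 in LPS-ALI lungs, with LPS-ALI replicate 4 highest, as for Plaur. All 6 tested markers lay below the median gene's difference. The difference of this score, TMAO minus LPS-ALI, was -0.42 with all libraries and -0.085 within code B. Its markers disagreed in LPS-ALI replicate 4, where Fabp4 (122.33 FPKM), Plet1 (18.93 FPKM) and Ear2 (34.63 FPKM) were the highest of all libraries. Chil3, Marco and Pparg were not highest there. Single markers of the other lists, Ly6g (17.57 FPKM), Ly6c2 (71.71 FPKM) and Cd68 (23.63 FPKM), were also highest in that library. The part of these cells in the Plaur values was not tested.

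The promoter window of Plaur is the remaining window among those of the 9 genes in which the AP-1 motif was found, shown in capitals. It lies at chr7:24462233-24462532 on the plus strand of GRCm38.p6.
Plaur: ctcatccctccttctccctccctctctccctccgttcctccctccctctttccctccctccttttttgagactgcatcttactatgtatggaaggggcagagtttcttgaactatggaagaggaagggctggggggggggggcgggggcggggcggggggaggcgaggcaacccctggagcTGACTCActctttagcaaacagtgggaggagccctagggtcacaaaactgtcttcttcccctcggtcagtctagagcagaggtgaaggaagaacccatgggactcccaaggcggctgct
Its match, TGACTCA, begins at position -69.

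Von Willebrand factor is the platelet-tethering protein of the vessel wall. Vwf lies on chromosome 6 from 125546774 to 125686679, on the plus strand. It had 43.66, 45.81, 30.98, 83.18 and 17.57 FPKM in TMAO replicates 1 to 5, against 40.44, 46.16, 76.15 and 6.61 FPKM in LPS-ALI replicates 1 to 4. The group means differed by less than the SD, at 44.2 ± 24.5 FPKM in TMAO and 42.3 ± 28.5 FPKM in LPS-ALI lungs (n = 5 and 4). Both X-coded libraries were extreme among the LPS-ALI lungs, replicate 3 high and replicate 4 low. Vwf differed by 0.46 relative to the median gene and 0.30 ± 0.59 (SE) unshifted, with an unadjusted limma p of 0.622. It was -0.27 without LPS-ALI replicate 4. The platelet chemokine gene Pf4 had 12.58, 14.53, 24.2, 14.47 and 14.85 FPKM in TMAO replicates 1 to 5, against 28.78, 30.81, 22.17 and 54.2 FPKM in LPS-ALI replicates 1 to 4. All 5 tested platelet markers lay below the median gene's difference. Their part in the Vwf values was not tested.

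**Figure D2:**
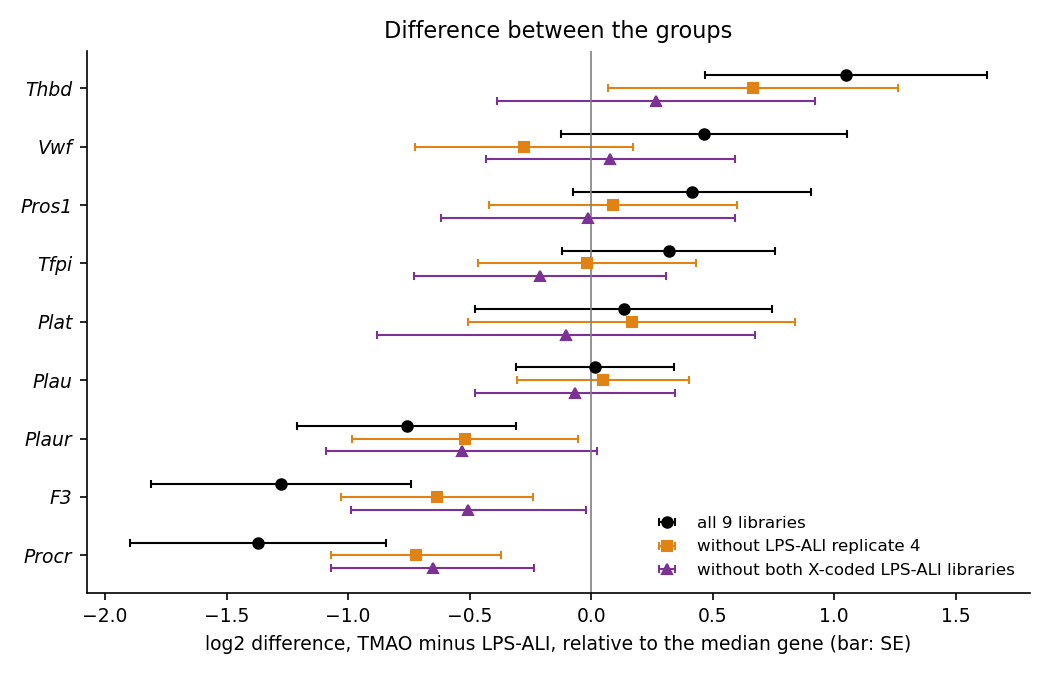
Log2 difference of each gene, TMAO minus LPS-ALI, relative to the median gene, with its SE, for all 9 libraries, without LPS-ALI replicate 4 and without both X-coded LPS-ALI libraries. Procr, F3 and Plaur stay below 0 in the 3 settings drawn, at -0.65, -0.50 and -0.53 without the X-coded libraries, Thbd is 1.05 with all libraries and 0.27 without the X-coded ones, and the other genes lie between -0.27 and 0.46.

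Several of these genes are endothelial, and endothelial marker levels differed between libraries. The markers disagreed in LPS-ALI replicate 4, where Pecam1 (26.96 FPKM), Tek (0.66 FPKM) and Ramp2 (40.08 FPKM) were the lowest of all libraries. Robo4 (15.4 FPKM), Cldn5 (254.56 FPKM) and the capillary markers Car4 (138.51 FPKM) and Gpihbp1 (167.9 FPKM) were the highest there. Other capillary markers were low, with Plvap (7.4 FPKM) the lowest of all libraries and Kit (3.74 FPKM) and Aplnr (0.05 FPKM) the lowest of the LPS-ALI lungs. The capillary score of that library, 0.67, was the lowest of all. The score of 12 endothelial markers differed by 0.36 log2 units, TMAO minus LPS-ALI, and by -0.09 without the X-coded libraries. Their summed FPKM was 588 to 2424 in TMAO and 858 to 1583 in LPS-ALI lungs. Less the endothelial score of the same library, Thbd averaged 0.04 in TMAO and -0.66 in LPS-ALI lungs, a difference of 0.70. The corresponding differences were 0.06 for Pros1, -0.03 for Tfpi, 0.11 for Vwf and -0.22 for Plat. Those of F3, Procr and Plaur were -1.63, -1.72 and -1.11. Without the X-coded libraries they were -0.42, -0.57 and -0.45, and that of Thbd was 0.36. The LPS-ALI values of Pros1 less the endothelial score were between -2.01 and -1.87 in all 4 lungs, replicate 4 included.

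The 9 genes fell into profiles of different shape over the libraries. Likeness was measured as the root mean square difference of log2 values, each less the median gene of its library and centred on the gene's own mean over the 9 libraries, so that smaller values mean more alike. The nearest pair among the 9 was Pros1 and Tfpi (0.28), followed by F3 and Procr (0.35) and by Pros1 and Thbd (0.46). The farthest apart were Procr and Vwf (1.90). LPS-ALI replicate 4 carried much of this contrast. Relative to its median gene, that library had 3.79 for F3 and 1.94 for Procr, against 0.04 to 0.86 and -1.62 to -1.13 in TMAO lungs and at most 1.38 and -0.61 in the other LPS-ALI lungs. For Vwf it had -0.05, against 2.15 to 3.05 in TMAO and at least 2.33 in the other LPS-ALI lungs.

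**Figure D3:**
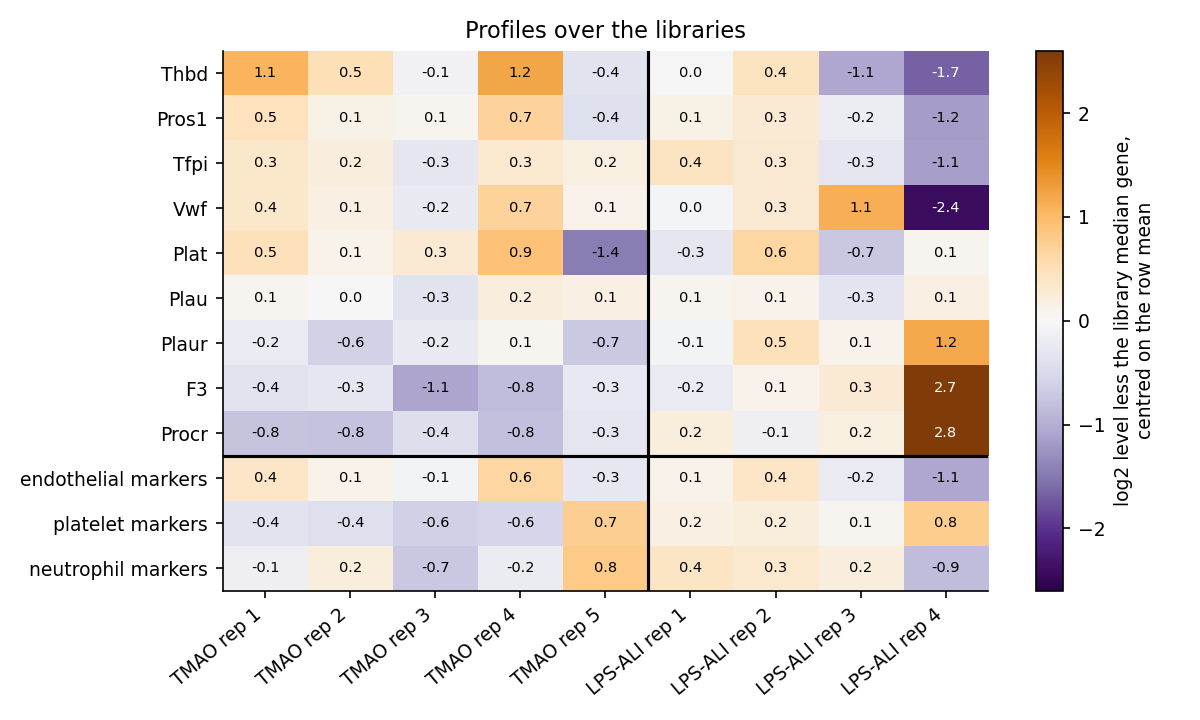
Log2 level of each gene less the median gene of its library, centred on the mean of its row, in the 5 TMAO libraries (left) and the 4 LPS-ALI libraries (right), with the scores of 3 marker lists below. LPS-ALI replicate 4 is high in F3, Procr and Plaur and low in Vwf, Thbd, Pros1, Tfpi and the endothelial markers.

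Over 6851 other genes with a mean FPKM of at least 5, the profiles most like F3 were those of Lilr4b (0.33) and Smox (0.36), and most like Procr were Spsb1 (0.25) and Ndrg1 (0.28). Lilr4b had 17.36 to 29.04 FPKM in TMAO and 36.46 to 141.2 FPKM in LPS-ALI lungs. Spsb1 had 0.76 to 3.4 FPKM in TMAO and 3.18 to 24.22 FPKM in LPS-ALI lungs. Smox and Ndrg1 had 110.7 and 94.85 FPKM in LPS-ALI replicate 4, against at most 22.27 and 10.74 FPKM in the other libraries. The highest values of Lilr4b and Spsb1 were also in that library, as for F3 and Procr. Sdc2 (0.26) and Gucy1a1 (0.26) were nearest to Thbd, Tlnrd1 (0.09) and Plscr3 (0.10) to Pros1, and Atp9a (0.12) and Mpv17 (0.13) to Tfpi. For Plat they were Pla1a (0.26) and Prx (0.28), for Plaur Pym1 (0.16) and Tmem252 (0.18), for Vwf Crtap (0.28) and Ankrd37 (0.34), and for Plau Mtpap (0.09) and Cep19 (0.09). A small value for Plau partly follows from its narrow spread of 0.19 on this scale, against 1.02 for F3.

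Ratios within a library do not depend on how libraries are scaled against each other, and are given as a description. The F3 to Tfpi ratio, initiator over inhibitor, was 0.89, 1.05, 0.83, 0.64 and 1.12 in TMAO replicates 1 to 5, against 0.95, 1.29, 2.32 and 25.2 in LPS-ALI replicates 1 to 4. It overlapped between the groups. The F3 to Thbd ratio, procoagulant over anticoagulant, was 0.12, 0.19, 0.16, 0.08 and 0.35 in TMAO replicates 1 to 5, against 0.31, 0.27, 0.90 and 7.88 in LPS-ALI replicates 1 to 4. Here TMAO replicates 1 to 4 were below the lowest LPS-ALI value, and TMAO replicate 5 lay within the LPS-ALI range. The Thbd to Procr ratio was 66.3, 40.7, 19.0, 60.2 and 27.6 in TMAO replicates 1 to 5, against 10.7, 20.7, 5.50 and 0.47 in LPS-ALI replicates 1 to 4. This ratio of receptors of the same pathway was above every LPS-ALI lung in 4 of 5 TMAO lungs. The Plaur to Plau ratio was 11.7 to 61.3 in TMAO and 15.7 to 37.8 in LPS-ALI lungs, so receptor exceeded ligand in each library.

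**Figure D4:**
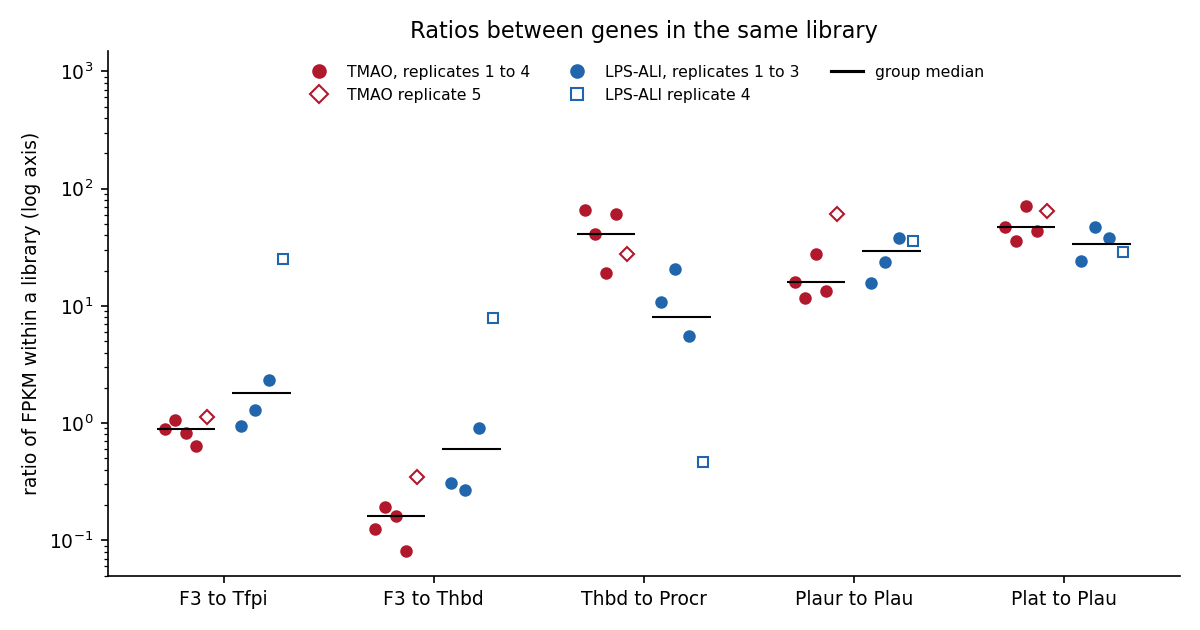
Ratios of FPKM between genes of the same library (log axis), with TMAO lungs on the left and LPS-ALI lungs on the right of each ratio and a line at each group's median. The groups overlap in each of the ratios drawn, and LPS-ALI replicate 4 stands apart in F3 to Tfpi (25.2), F3 to Thbd (7.88) and Thbd to Procr (0.47).

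The wider pathway was read from 4 lists with 54 genes, of which 25 were tested. Of these, 12 lay below and 13 above the median gene, with a median relative difference of 0.05 against 0.00 over all tested genes. By limma, 0 of the 25 passed the adjusted threshold and 0 had an unadjusted p under 0.05, where the shares over all genes were 2.93% lower and 0.423% higher in TMAO lungs. That count of 0 depends on the scaling. The unadjusted limma p of F10, F7 and Hs3st1 was 0.0298, 0.0326 and 0.0362 under median-of-ratios scaling and 0.0311, 0.0131 and 0.0250 under quantile normalization, and with library weights that of F7 was 0.0094 and that of Hs3st1 0.0401. Among coagulation factors, 7 of 19 were tested, 5 below and 2 above the median gene, and among anticoagulants 6 of 12, with 2 below and 4 above. Among other genes of fibrinolysis 6 of 11 were tested, 2 below and 4 above, and among receptors 6 of 12, with 3 below and 3 above. Many of the untested genes encode plasma proteins of the liver. Plasminogen (Plg) was at most 0.07 FPKM and prothrombin (F2) at most 0.2 FPKM in any library. The fibrinogen genes Fgg and Fga had 5.89 and 2.66 FPKM in LPS-ALI replicate 4, against at most 0.57 and 0.44 FPKM in the other libraries.

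Factors VII and X, the ligand and a substrate of the tissue factor complex, were measured at low levels. F10 had 2.9, 3.2, 4.74, 6.56 and 1.44 FPKM in TMAO replicates 1 to 5, against 8.9, 3.95, 5.14 and 16.38 FPKM in LPS-ALI replicates 1 to 4 (relative log2 difference -0.77, limma unadjusted p = 0.0501). F7 had 1.23, 0.68, 1.18, 1.92 and 0 FPKM in TMAO replicates 1 to 5, against 2.04, 1.94, 2.16 and 1.69 FPKM in LPS-ALI replicates 1 to 4 (relative log2 difference -0.48, limma unadjusted p = 0.0566). The F10 values overlapped through TMAO replicates 3 and 4, and those of F7 through TMAO replicate 4 alone. Relative to the median gene of each library the F7 values did not overlap (exact permutation p = 0.0159), as was so for 1.70% of all genes in that direction. The transglutaminase subunit gene F13a1 had 0.37 to 2.27 FPKM in TMAO and 1.69 to 6.62 FPKM in LPS-ALI lungs. Vkorc1, the vitamin K reductase, had 16.82 to 31.73 FPKM in TMAO and 7.16 to 25.14 FPKM in LPS-ALI lungs.

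Of the anticoagulants, Hs3st1, a heparan sulfate sulfotransferase that makes antithrombin-binding sites, had 4.69, 8.02, 4.44, 7.98 and 1.61 FPKM in TMAO replicates 1 to 5, against 3.61, 3.78, 4.05 and 0.98 FPKM in LPS-ALI replicates 1 to 4. TMAO replicates 1 to 4 lay above every LPS-ALI lung (relative log2 difference 0.76, limma unadjusted p = 0.193, and 0.0217 without TMAO replicate 5). Relative to the median gene of each library the Hs3st1 values did not overlap, with an exact permutation p of 0.0159, as was so for 1.72% of all genes in that direction. Entpd1, the ADP-degrading enzyme of endothelium and leukocytes, had 11.49 to 25.5 FPKM in TMAO and 13.38 to 55.5 FPKM in LPS-ALI lungs. Tfpi2 had 0.39 to 2.28 FPKM in TMAO and 0.42 to 3.04 FPKM in LPS-ALI lungs. Serpind1, heparin cofactor II, had 0.6 to 5.17 FPKM in TMAO and 0 to 6.27 FPKM in LPS-ALI lungs.

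In the fibrinolysis list, vitronectin (Vtn), an adhesive protein of plasma and matrix, had 3.23 to 35.63 FPKM in TMAO and 0.44 to 22.08 FPKM in LPS-ALI lungs. Its relative log2 difference of 1.36 (limma unadjusted p = 0.150) was -0.21 without the X-coded libraries. Anxa2, which carries plasminogen on cell surfaces, had 162 to 484 FPKM in TMAO and 343 to 442 FPKM in LPS-ALI lungs, and Serpine2, protease nexin 1, had 5.03 to 20.02 FPKM in TMAO and 11.66 to 20.62 FPKM in LPS-ALI lungs. S100a10, the partner of Anxa2 in that complex, had 164.41 to 220.33 FPKM in TMAO and 156.05 to 199.29 FPKM in LPS-ALI lungs. Among receptors, the thrombin receptor gene F2r had 5.2 to 65.56 FPKM in TMAO and 13.33 to 32.24 FPKM in LPS-ALI lungs. The integrin genes Itgam and Itgb2 had 2.28 to 30.68 and 5.71 to 35.28 FPKM in TMAO lungs, against 18.98 to 23.48 and 15.57 to 26.55 FPKM in LPS-ALI lungs. Gp1bb, part of the platelet receptor for Vwf, had 0.17 to 1.15 FPKM in TMAO and 0.79 to 2.66 FPKM in LPS-ALI lungs (relative log2 difference -0.44, limma unadjusted p = 0.0612).

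RefSeq promoter windows were found for 5 of the 9 genes, F3, Procr, Plaur, Tfpi (with 2 start sites) and Pros1. The AP-1 motif TGANTCA occurred in the windows of F3, Procr and Plaur, and was not found in those of Tfpi and Pros1. Over 32851 windows of the same length, 7.81% held it. The SP1 box, GGGCGG on either strand, was found in all of them but the window of Procr, and in 35.7% of windows overall. The TATA box letters TATAAA, on either strand, were in the windows of F3 and Tfpi and in 13.6% overall. Both matches read TTTATA, so they lie on the strand opposite to the gene, at position 44, after the start site, for F3 and at -127 for Tfpi. Neither the cyclic AMP response element TGACGTCA nor the NF-kB consensus GGGRNNYYCC was found in any of the 6 windows, against 1.79% and 8.46% of windows overall. In that consensus R is A or G, Y is C or T and N is any base. Variants of it were not searched, so their presence in these windows is not known from this search. The motifs were chosen after the windows and the expression values had been seen, and a match is a description of the letters in the window.

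**Figure D5:**
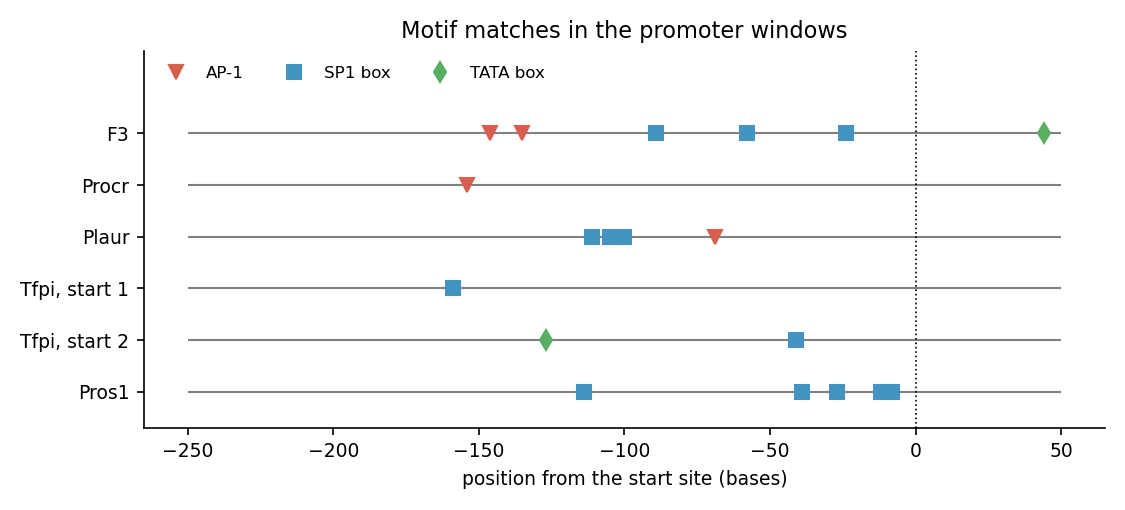
Matches to the AP-1, SP1 and TATA motifs along the 6 promoter windows of F3, Procr, Plaur, Tfpi and Pros1, by distance from the start site in bases. AP-1 matches appear between positions -154 and -69 in the windows of F3, Procr and Plaur.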

How the data were processed

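RNA sequencing of lung tissue from 9 mice was analysed, 5 TMAO and 4 LPS-ALI, grouped as the labels' sample group gives. Per the labels' protocols, ribosomal RNA was removed before library preparation with NEBNext Ultra II reagents. Per the submitters' processing notes, fastp, HISAT2, SAMtools and featureCounts were used with build mm10. The sources used here do not give their roles, versions, annotation, gene lengths or strand setting. The authors deposited FPKM, written to 2 decimals. Without a stated strand setting, reads of overlapping antisense genes cannot be told apart. The labels number the mice, so p-values measure the spread between mice, which in LPS-ALI lungs includes any difference between codes X and B. Code X occurs in LPS-ALI lungs alone, so code and group cannot be fully told apart with all libraries.

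FPKM are not counts, so log2(FPKM + 1) was tested with two-sided limma (3.58.1, R 4.3.3) with an intensity trend. The fit covered 11817 genes, those at an FPKM of 1 or more in 4 or more libraries, with Benjamini-Hochberg adjustment. The pseudocount understates changes of low genes. For named genes an exact two-sided permutation test was added. Positions come from GENCODE M21 on GRCm38, the assembly of mm10, to which 52125 of 52381 gene identifiers matched. Promoters come from RefSeq on GRCm38.p6. Absolute depth is unknown. Relative depth was estimated from the commonest ratios of low values between libraries and was 0.384 to 1. No libraries were copies, since at most 63 of the tested genes had equal values in any pair. A marker score is the mean log2 value of a list's tested genes less the median tested gene of the library. In simulated data for this comparison over 11817 genes, 2 of 100 genes with a 2-fold change and 50 of 100 with a 4-fold change were called, beside 5 unchanged genes. The simulated noise was independent between genes, with no library that stood apart, so these counts may not hold for the measured libraries.

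The 9 genes, 4 pathway lists and 15 marker lists were chosen with earlier results of these data known. Named are the 9 genes, up to 4 genes per pathway list with the smallest unadjusted p, and Proc, and the 2 nearest profiles per gene. A further pathway gene is not reported here. Pf4, Plg, F2, Fga, Fgg and the other single cell type markers were named after their values were seen. Python 3.11.15 with pandas 2.3.3, scipy 1.17.1 and matplotlib 3.10.9 served for the rest. Other pseudocounts, filters, scalings, variance models and left-out libraries were tried.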

Additional observations from a re-analysis of the deposited data

Results flagged for a closer look

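Within groups of 4 or 5 lungs, 50 combinations of gene and group were searched for a library far from the others. In all, 3 were found, a count near the share of about 1 in 20 that chance gives. All 3 were in LPS-ALI replicate 4. It had 107.91 FPKM of F3, with the nearest LPS-ALI lung at 16.7 FPKM. It had 29.3 FPKM of Procr, with the nearest at 4.4 FPKM. It had 0.98 FPKM of Hs3st1, with the nearest at 3.61 FPKM. The same library had the lowest endothelial and the highest erythroid marker score, and the part of these in its values was not tested.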

How the results depend on the processing

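Over 512 pairs of a named gene and an alternative setting, 472 kept the direction and the side of the threshold, 40 changed sign and 0 newly passed it. F3, Procr, Plaur and Thbd kept their direction in all 21 alternatives. Sign changes in the relative log2 difference were, for Plau, -0.24 and -0.045 with pseudocounts of 0.1 and 0.5, -0.10 with no filter, -0.13 and -0.062 under median-of-ratios and quantile scaling, -0.0053 without mitochondrial genes, -0.15 with library weights and -0.067 without the X-coded libraries. With library weights they were -0.13 for Tfpi, -0.069 for Vwf, 0.0049 for F13a1 and -0.37 for Serpind1. Without the X-coded libraries they were -0.21 for Tfpi, -0.014 for Pros1, -0.10 for Plat, 0.12 for F13a1, 0.037 for Entpd1, -0.67 for Serpind1, -0.21 for Vtn and -0.061 for F2r. Without LPS-ALI replicate 4 and TMAO replicate 5 together they were -0.22 for Vwf, -0.074 for S100a10, -0.11 for Vkorc1, 0.064 for Entpd1 and -0.042 for Serpind1. Leaving out each library in turn gave -0.016 to 0.52 for Tfpi, -0.090 to 0.54 for Plat, -0.081 to 0.10 for Plau, -0.27 to 0.94 for Vwf, -0.24 to 0.16 for Tfpi2, -0.28 to 0.037 for Itgb2, -0.41 to 0.14 for Entpd1 and -0.13 to 0.88 for Serpind1. The causes were not tested.

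Of all genes, 0 passed the adjusted threshold, and 51 did with library weights. It was 0 to 3 when each library was left out, namely 1 without LPS-ALI replicate 3 and 3 when TMAO replicate 4 was omitted. The count at an unadjusted p under 0.05, 396, was 848 with no filter, 208 at a mean FPKM of at least 5, 797 and 891 under median-of-ratios and quantile scaling, 245 without mitochondrial genes, 1634 with library weights, 160 without the X-coded libraries, 838 with LPS-ALI replicate 4 and TMAO replicate 5 both left out, and 236 to 849 when each library was left out (246 for LPS-ALI replicate 4, 236 for TMAO replicate 1, 849 for TMAO replicate 5). Of the 9 genes, 2 had such a p. The count was 4 (F3, Procr, Plaur and Thbd) under median-of-ratios and quantile scaling, 0 without the X-coded libraries and 1 to 3 when each library was left out, with 1, Procr, without LPS-ALI replicate 4. The labels give no pairing of the samples, and same-numbered lungs had correlations of their deviations of -0.13 to 0.06. These come from few pairs and cannot exclude a pairing. With the mouse number as a replicate block, which leaves TMAO replicate 5 without weight, 746 genes and 4 of the 9 had such a p, 0 passed the adjusted threshold, and Itgb2 changed sign to 0.039. The relative depths limit low genes most, above all Plau in TMAO replicate 5.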
